A study of Mus musculus with 58 samples.

Results

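The comparison described here is that of female mice given SB239063 (SB), a small molecule that blocks p38 MAPK, a kinase activated by stress, with female mice given vehicle, all after repeated closed head injury. The libraries were taken by their labels: 11 female libraries of the chronic injured SB group and 12 of the chronic injured vehicle group, 23 of the 58 libraries of the series. Injured SB females were C57BL/6J mice that received 5 closed head injuries, 1 a day, at an age of 2 to 4 months, and SB at 20 mg/kg in saline into the abdominal cavity 30 min after each injury. Injured vehicle females were C57BL/6J mice of the same age and injury that received saline on the same schedule. The other libraries come from males treated in the same way (8 injured SB and 8 injured vehicle) and from sham mice of both sexes, among them 3 sham SB and 9 sham vehicle females. The sham mice, also aged 2 to 4 months, went through 5 sham procedures. They received SB at 20 mg/kg or vehicle 30 min after each. Polyadenylated RNA of the somatosensory cortex was sequenced about 1 month after the last injury, at about 18 or 34 days, and the sources used here do not give the day of each mouse. The females fall into 4 labelled cohorts: SB and vehicle libraries number 3 and 3 in F1, 2 and 2 in F2, 5 and 5 in F3, and 1 and 2 in F4.

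The p38 kinases are switched on by stress and cytokines through a relay of upstream kinases, and pass the signal to kinases such as MK2 and MNK and to transcription factors such as ATF2 and MEF2. In microglia and astrocytes they are best known for raising the output of inflammatory cytokines, in part by stabilising their mRNAs. SB239063 occupies the ATP pocket of p38 alpha and p38 beta, encoded by Mapk14 and Mapk11, so its direct effect is on kinase activity and not on the mRNA of the kinases. The doses ended weeks before the tissue was taken, so the comparison asks which cortical transcripts still differ long after an early course of treatment.

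Levels are in CPM, counts scaled to the library's total over the 9636 listed genes and by the TMM factors of edgeR. Differences are log2 fold changes of SB over vehicle with the standard error (SE) of edgeR's quasi-likelihood fit, which held all 8 groups of the series and the cohort as a block. Where 3 CPM values are given for a group, they are its lowest, median and highest library, over n = 11 for SB and n = 12 for vehicle. A value written with ± after a gene is its log2 fold change and SE. The library totals of these females ran from 28316280 to 48409618 counts over the listed genes, and the smallest count in the table is 101. Counting error, relative to the level, is largest for the genes of lowest count. Excitatory neuron markers and upper cortical layer markers were measured in full (12 of 12 and 19 of 19). Of other regions, 11 of 18 striatum, 9 of 14 thalamus and 8 of 14 hippocampus markers are among the listed genes. So are 2 of 13 choroid plexus markers and 0 of 18 blood and leukocyte markers. Which genes are listed rests on a filter that is not given, so these counts do not test the dissection. In bulk tissue, fewer cells of a type and less RNA per cell cannot be told apart. On the first 4 principal components of the 23 libraries (28.2%, 20.9%, 10.1% and 7.95% of the variance), 3 libraries held the extreme scores: SB replicate 10 of cohort F3, SB replicate 8, which is the sole SB library of cohort F4, and vehicle replicate 9 of cohort F2. Their part in the results is given by the values without them, a check added after seeing the data.

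No gene passed. Of 9636 genes, 0 had an adjusted p under 0.05 (0% called; Benjamini-Hochberg over all genes, smallest adjusted p = 0.693 by edgeR), and DESeq2 and limma voom with quality weights also called 0. At an unadjusted p under 0.05 stood 695 genes (7.21%), against 481.8 that the threshold itself passes when nothing differs, with 318 higher (3.3%) and 377 lower (3.91%) in SB females. DESeq2 put 728 genes and voom 1280 genes under the same unadjusted threshold. With upper-quartile in place of TMM factors the split was 204 higher and 530 lower, and with the length slope of each library as a covariate it was 333 higher and 244 lower. The differences were small: 5079 genes were higher (52.7%) and 4557 lower (47.3%), with a median log2 fold change of 0.0057 and a median SE of 0.067, and the farthest gene lay 0.49 from 0 on the log2 scale. For 99.5% of genes the 95% interval stayed within a 1.5-fold difference in either direction. In no gene did all SB libraries lie above all vehicle libraries (0% of genes), or all below them (0%). The 695 depended on single libraries and cohorts, being 451 without SB replicate 10, 455 without vehicle replicate 9, 300 without cohort F3, 416 without cohort F4 and 241 without the 3 far libraries, with 0 genes called each time.

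**Figure D1:**
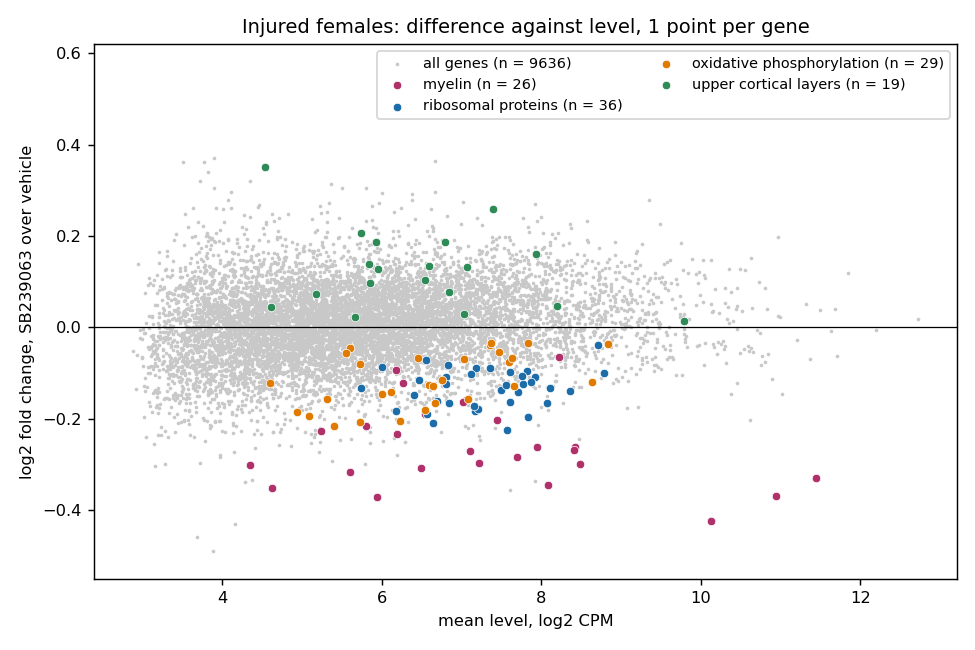
Log2 fold change of SB over vehicle in injured females (vertical axis) against the mean level in log2 CPM (horizontal axis), 1 point per gene, with 4 gene lists in colour. All 26 myelin genes, 36 ribosomal protein genes and 29 oxidative phosphorylation genes lie below 0 and all 19 upper layer genes above it, while no single gene passed the test (18 of 19 upper layer genes are above 0 under upper-quartile factors).

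The members of the p38 pathway itself were close to level. Mapk14, the p38 alpha gene, stood at 89.6, 116 and 129 CPM (lowest, median and highest) in SB libraries, against 101, 111 and 122 CPM in vehicle libraries, a log2 fold change of 0.04 ± 0.039 (unadjusted p = 0.308, adjusted p = 0.809 by edgeR). The groups overlapped over nearly their whole range. Mapk11, the p38 beta gene, spanned 56.7, 75.8 and 114 CPM in SB libraries and 59.1, 82.6 and 104 CPM in vehicle libraries, with a log2 fold change of 0.03 ± 0.091 whose 95% interval ran from -0.16 to 0.21. Its direction turned without SB replicate 10 (-0.03), without SB replicate 8 (-0.01) and without cohort F1 (-0.02). Mapkapk2, which encodes the p38-activated kinase MK2, differed by 0.08 ± 0.062 with a 95% interval of -0.04 to 0.20. Mapk12 and Mapk13 were not analysed here.

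Of 13 measured p38 kinases and upstream kinases, 8 were higher and 5 lower, with a median of 0.041 beside 0.0057 for all genes. Only the upstream kinase gene Map3k4 reached an unadjusted p under 0.05 among them (7.69%, beside 3.3% of all genes higher): its levels were 59.4, 68.0 and 76.9 CPM in SB libraries and 53.3, 63.6 and 70.6 CPM in vehicle libraries, a log2 fold change of 0.09 ± 0.044 (adjusted p = 0.693 by edgeR). That count of 1 was 0 with upper-quartile factors and when any of 10 single libraries was left out, SB replicates 1, 4, 7 and 8 and vehicle replicates 1, 4, 5, 6, 8 and 9. Of 19 p38 substrates and effectors, 13 were higher and 6 lower (median 0.048). Among the higher, 3 (15.8%, beside 3.3% of all genes higher) had an unadjusted p under 0.05. These 3 were Mef2d, a neuronal transcription factor that p38 phosphorylates, at 0.13 ± 0.052; Mknk2, a kinase of the translation factor eIF4E, at 0.15 ± 0.070; and Srf, the serum response factor gene, at 0.17 ± 0.081. Mef2d spanned 266, 299 and 387 CPM in SB libraries and 231, 280.1 and 315 CPM in vehicle libraries, and 4 of 11 SB libraries lay above the highest vehicle library. The count of 3 was 0 without SB replicate 10 and 1 with upper-quartile factors, without SB replicate 8 or any of vehicle replicates 4, 5, 7 and 8, and the median was 0.023 without vehicle replicate 2. MAPK phosphatases, which switch these kinases off, were split 5 higher and 6 lower (median -0.00097, or 0.044 without SB replicate 8, none with an unadjusted p under 0.05), with Ptpn5, the brain tyrosine phosphatase STEP, at 0.10 ± 0.056 and Dusp8 at 0.07 ± 0.047.

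Inflammatory and immune genes, the classical output of p38, showed no difference that passed, and most of the cytokine, interferon and complement genes are not among the 9636 listed. Of 30 cytokine and NF-kB response genes 8 were measured, all 8 slightly higher in SB females (4 of 8 under upper-quartile factors), with a median of 0.036, a range of 0.0044 to 0.089 and none with an unadjusted p under 0.05. The member of smallest p was Il6st, the shared receptor subunit of the interleukin-6 family, which spanned 77.2, 110.4 and 126 CPM in SB libraries and 71.6, 100.2 and 132 CPM in vehicle libraries (0.09 ± 0.069). The median of the 8 was -0.018 without SB replicate 10 and -0.035 without the 3 far libraries. Interferon response and antigen presentation genes were 7 higher and 4 lower of 11 measured (median 0.033, or 0.016 without vehicle replicate 2 and -0.017 without the 3 far libraries), the first by p being the transcription factor gene Stat3 at 0.07 ± 0.050. Of 8 measured complement genes 3 were higher and 5 lower (median -0.022, or 0.010 without SB replicate 1). Csmd1, which encodes a complement-regulating membrane protein of synapses, was at 0.17 ± 0.089, and its relative Csmd2 at 0.14 ± 0.087. C4b, the effector component C4, spanned 14.9, 23.7 and 33.8 CPM in SB libraries and 17.8, 24.0 and 53.0 CPM in vehicle libraries (-0.26 ± 0.159), and its within-cohort differences of -0.23, -1.19, 0.02 and -0.23 in F1 to F4 were largest in cohort F2.

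Homeostatic microglia markers were split, while disease-associated microglia and lysosome genes were mostly lower in SB females by small amounts. Of 12 measured homeostatic microglia markers 5 were higher and 7 lower (median -0.042, or -0.015 without SB replicate 10, none with an unadjusted p under 0.05), led by the fractalkine receptor gene Cx3cr1 with 40.8, 48.7 and 58.7 CPM in SB libraries and 40.0, 52.2 and 77.6 CPM in vehicle libraries (-0.12 ± 0.063). Of 15 disease-associated microglia and lysosome genes 2 were higher and 13 lower (median -0.079), with 2 lower ones (13.3%, beside 3.91% of all genes) at an unadjusted p under 0.05. Fth1, the ferritin heavy chain that stores iron in oligodendrocytes as well as microglia, spanned 1267, 1461 and 1689 CPM in SB libraries and 1215, 1625 and 2286 CPM in vehicle libraries. Its log2 fold change was -0.20 ± 0.077, and only 1 SB library lay above the vehicle median. Cd9, a tetraspanin also found in myelin-forming cells, spanned 27.9, 32.7 and 40.4 CPM in SB libraries and 32.2, 37.5 and 54.2 CPM in vehicle libraries (-0.23 ± 0.098), with 5 SB libraries below the lowest vehicle library. The count of 2 became 4 with upper-quartile factors, 5 without SB replicate 9 or vehicle replicate 11, 4 without SB replicate 4 or vehicle replicate 4, and 1 without SB replicate 5 or vehicle replicate 6. Astrocyte markers were 8 higher and 11 lower of 19 with a median of -0.0062, or -0.033 without SB replicate 3 and -0.060 without the 3 far libraries (5 higher, 14 lower). Of the 19, 1 lower gene (5.26%, beside 3.91% of all genes lower) had an unadjusted p under 0.05. It was S100b, a calcium-binding protein gene also expressed in oligodendrocytes, at -0.23 ± 0.095, named after its value was seen. That count was 4 without vehicle replicate 4 and 2 without SB replicate 8 or 9.

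**Figure D2:**
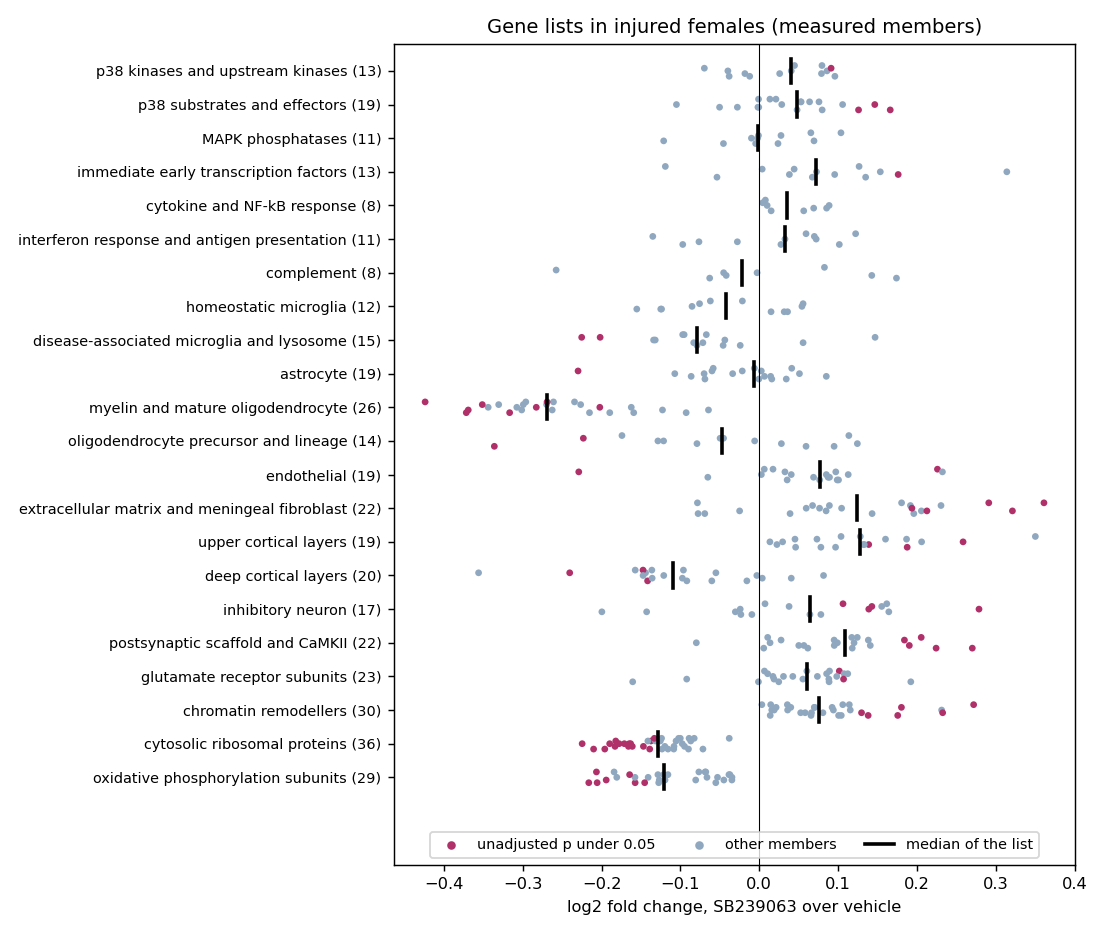
Log2 fold change of SB over vehicle in injured females for the measured members of 22 gene lists, 1 point per gene (dark red for an unadjusted p under 0.05), black bars at the list medians and the number of measured members in parentheses. The myelin, ribosomal protein and oxidative phosphorylation lists lie wholly below 0, and the upper layer, chromatin and cytokine lists wholly above it. Under upper-quartile factors these 3 lists do not lie wholly above 0 (18 of 19 upper layer and 26 of 30 chromatin genes do). The p38, interferon, complement and microglia lists lie on both sides of 0.

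Myelin genes had the largest median shift of the lists. All 26 measured genes of myelin and mature oligodendrocytes, the cells that wrap axons, were lower in SB females, with a median log2 fold change of -0.27 and a range of -0.42 to -0.06. Of the 26, 8 (30.8%) had an unadjusted p under 0.05, beside 3.91% of all genes lower, and 19 were lower in each of the 4 cohorts, beside 8.08% of all genes. None passed the adjusted threshold. Mobp and Opalin, which stood among the first 5 genes by agreement of the cohorts in the lower direction, carry, before their RefSeq start site, the letters CTTTGT or the reverse complement ACAAAG, a core shared by SOX transcription factors such as the oligodendrocyte factor SOX10. The stretches of Mobp (chr9:120149492-120149647, plus strand) and Opalin (chr19:41077227-41077272, minus strand), both of RefSeq build GRCm38.p6, are shown with these letters in capitals:

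Mobp: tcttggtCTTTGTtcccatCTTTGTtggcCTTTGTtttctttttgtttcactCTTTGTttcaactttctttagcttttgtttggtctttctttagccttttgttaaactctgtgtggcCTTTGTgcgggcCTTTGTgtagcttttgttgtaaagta

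Opalin: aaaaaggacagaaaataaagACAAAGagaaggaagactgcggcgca

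Mobp holds the letters 6 times and Opalin once in the 250 bases before the start. Of the 17 myelin genes with an entry in the RefSeq promoter table, 5 (29.4%) hold them at least once on either strand, beside 841 of 7764 measured genes (10.8%). The match is of letters only, with no measurement of binding.

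Mobp, a structural protein of compact myelin, spanned 444, 1072 and 1394 CPM in SB libraries and 783, 1174 and 1794 CPM in vehicle libraries. Its log2 fold change was -0.42 ± 0.177 (unadjusted p = 0.0206, adjusted p = 0.693 by edgeR), 3 SB libraries lay below every vehicle library and 2 above the vehicle median. The lowest SB library was replicate 8 of cohort F4. Mog, a surface glycoprotein of the myelin sheath, was at -0.37 ± 0.157, and Qdpr, a pteridine reductase enriched in oligodendrocytes, at -0.28 ± 0.104, with 133, 184 and 246 CPM in SB libraries against 169.5, 207 and 343 CPM in vehicle libraries. Opalin, a membrane protein of mature oligodendrocytes, spanned 14.6, 19.4 and 35.1 CPM in SB libraries and 17.2, 25.0 and 43.8 CPM in vehicle libraries (-0.35 ± 0.152). Mal, a proteolipid of myelin membranes, spanned 102, 249 and 352 CPM in SB libraries and 214, 271 and 407 CPM in vehicle libraries (-0.34 ± 0.175, unadjusted p = 0.0546 by edgeR).

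The size of the myelin difference rested on few mice. Within cohorts the median difference of the 26 genes was -0.06 in F1, -0.35 in F2, -0.19 in F3 and -1.23 in F4, where the single SB library was replicate 8. Without that library the median was -0.19 and 1 of the 26 had an unadjusted p under 0.05, and without the 3 far libraries it was -0.16 with 0. The count was 13 with upper-quartile factors, 18 without SB replicate 2, 15 without SB replicate 9 and 13 without SB replicate 4 or 6. The mean log2 CPM of the 26 genes, set against the vehicle mean, ran from -1.07 to 0.20 with a median of -0.12 in SB libraries, and from -0.39 to 0.43 with a median of -0.082 in vehicle libraries. The group medians were therefore close, and the SB group differed by a tail of low libraries: SB replicates 3, 8, 10 and 11 lay below every vehicle library. In the same fit the injured males, who share no library with the females, had 25 of the 26 genes lower and a median of -0.35. The list was written with earlier results of these data known, so the male values give no separate support. Earlier cells of the lineage were nearer to level, with 5 higher and 9 lower of 14 (median -0.047). Among them Bcas1, a marker of newly formed oligodendrocytes, was at -0.34 ± 0.151. Olig2, the lineage transcription factor gene, spanned 16.4, 25.5 and 29.7 CPM in SB libraries and 20.3, 30.4 and 33.3 CPM in vehicle libraries (-0.22 ± 0.106), with no SB library above the vehicle median. The 2 lower genes with an unadjusted p under 0.05 (14.3%, beside 3.91% of all genes) became 0 without SB replicate 3, 5 or 8 or vehicle replicate 8. The lineage median was -0.018 without SB replicate 1 and -0.089 without vehicle replicate 9.

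**Figure D3:**
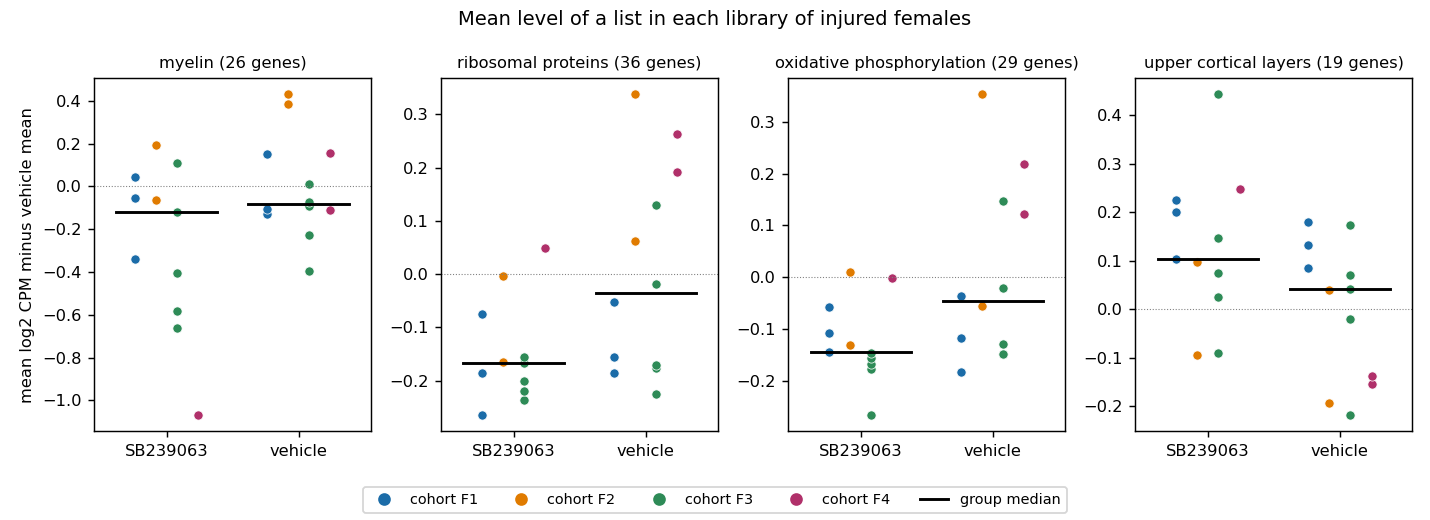
Mean log2 CPM of the members of 4 gene lists in each injured female library, less the mean of the vehicle libraries (vertical axis), with SB at the left, vehicle at the right, points coloured by cohort and black bars at the group medians. SB replicate 8 is the lowest myelin point at -1.07, and 10 of 11 SB libraries lie below 0 for ribosomal proteins and for oxidative phosphorylation, as do 7 and 8 of 12 vehicle libraries, with vehicle replicate 9 highest at 0.34 and 0.35.

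Markers of cortical layers differed in opposite directions. All 19 genes of the upper layers, whose neurons connect cortical areas with each other, were higher in SB females (18 of 19 under upper-quartile factors), with a median of 0.13 and a range of 0.01 to 0.35. Of these, 3 (15.8%, beside 3.3% of all genes higher) had an unadjusted p under 0.05. Cux2, the homeodomain gene that marks upper layer neurons, spanned 125, 185 and 239 CPM in SB libraries and 114, 154 and 181 CPM in vehicle libraries. Of 11 SB libraries, 6 lay above the highest vehicle library, and the log2 fold change was 0.26 ± 0.101 (unadjusted p = 0.0134, adjusted p = 0.693 by edgeR). Plxnd1, a semaphorin receptor, stood at 0.19 ± 0.075, with medians of 118 CPM in SB libraries and 102 CPM in vehicle libraries. Lhx2, a LIM homeodomain gene, stood at 0.14 ± 0.064, with medians of 59.9 CPM in SB libraries and 53.1 CPM in vehicle libraries. The upper layer median within cohorts was 0.06 in F1, 0.03 in F2, 0.10 in F3 and 0.39 in F4, and was 0.076 without SB replicate 3. Of the 19 genes 2 were higher in every cohort, beside 8.54% of all genes. The 3 became 7 without vehicle replicate 10 and 5 without SB replicate 11.

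Of 20 genes of the deep layers, which send axons out of the cortex, 17 were lower and 3 higher, with a median of -0.11. Among the lower, 3 (15.0%, beside 3.91% of all genes lower) had an unadjusted p under 0.05. Nfib, a nuclear factor I gene, spanned 128, 151 and 171 CPM in SB libraries and 139, 161 and 213 CPM in vehicle libraries (-0.14 ± 0.052). Its relative Nfia stood at -0.15 ± 0.061, and Crym, the thyroid hormone binding crystallin mu gene, at -0.24 ± 0.118. Nfia and Nfib are also expressed in glia. The deep layer median was -0.041 without SB replicate 8, with 1 gene in place of 3 under the unadjusted threshold, and within cohorts it was 0.0011 in F1, -0.17 in F2, -0.05 in F3 and -0.83 in F4. The SB library of cohort F4 was thus the lowest for myelin and for deep layer genes at once, at -1.07 and -0.71 against the vehicle mean. It stood at 0.25 for the upper layers. For myelin, deep and upper layers in that order, SB replicate 3 of cohort F3 stood at -0.66, -0.30 and 0.44. SB replicate 11 stood at -0.41, -0.07 and 0.15, and SB replicate 10 at -0.58, 0.14 and -0.09.

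Genes of the postsynaptic side leaned higher, while excitatory neuron markers and axonal cytoskeleton genes were split. Of 22 postsynaptic scaffold and CaMKII genes 21 were higher and 1 lower (18 and 4 under upper-quartile factors), with a median of 0.11, and 5 (22.7%, beside 3.3%) had an unadjusted p under 0.05. Shank3, a master scaffold of excitatory synapses, spanned 201, 233 and 349.7 CPM in SB libraries and 148, 211 and 333 CPM in vehicle libraries. Cohort F1 was high in both groups, so the groups overlapped widely, while the differences within cohorts were 0.12, 0.12, 0.38 and 0.53 in F1 to F4. Its log2 fold change was 0.27 ± 0.091 (unadjusted p = 0.00449, adjusted p = 0.693 by edgeR). The scaffold genes Shank2 and Dlgap2 stood at 0.21 ± 0.074 and 0.22 ± 0.102. The count of 5 was 3 without vehicle replicate 9 or SB replicate 10 and 9 without vehicle replicate 10. Of 23 glutamate receptor subunits 20 were higher and 3 lower (median 0.060, or 0.039 without vehicle replicate 9). Among the higher, 2 (8.70%, beside 3.3% of all genes higher) had an unadjusted p under 0.05. They were Grin1, the obligatory NMDA receptor subunit, at 0.11 ± 0.052 and the delta receptor gene Grid1 at 0.10 ± 0.048. That count was 0 or 1 when any of 15 single libraries was left out.

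Of 12 excitatory neuron markers 7 were higher and 5 lower (median 0.018, or -0.016 without SB replicate 10). None of the higher and 2 of the lower (16.7%, beside 3.91% of all genes) had an unadjusted p under 0.05. These 2, named after their values were seen, were Neurod6, a neuronal differentiation factor gene, at -0.21 ± 0.075 and the LIM protein gene Lmo4 at -0.13 ± 0.063, and when any of 12 single libraries was left out the count was 1. Of 20 axonal cytoskeleton genes 10 were higher and 10 lower (median -0.0078). At an unadjusted p under 0.05 stood 3 higher (15%, beside 3.3% of all genes) and 1 lower (5%, beside 3.91%). These counts were 0 higher without vehicle replicate 9 and 5 lower without vehicle replicate 10. Named after their values were seen, the higher included Map1a, a microtubule-associated protein gene, at 0.20 ± 0.093 and the spectrin gene Sptan1 at 0.12 ± 0.062, and the 1 lower was Stmn1, a tubulin-binding stathmin gene, at -0.18 ± 0.058.

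Of 17 inhibitory neuron genes 11 were higher and 6 lower (median 0.064). Among the higher, 4 (23.5%, beside 3.3% of all genes higher) had an unadjusted p under 0.05. Reln, the secreted glycoprotein reelin of layer 1 and other interneurons, spanned 68.5, 91.4 and 117 CPM in SB libraries and 40.1, 76.6 and 103 CPM in vehicle libraries (0.28 ± 0.107). It was lower in cohort F1 (-0.14) and higher in F2, F3 and F4 (0.56, 0.39 and 0.35). The potassium channel gene Kcnc1 stood at 0.14 ± 0.057 and the homeodomain gene Dlx1 at 0.14 ± 0.065. Without SB replicate 8 the 4 became 1, and without SB replicate 5 the median was 0.030. Immediate early transcription factors, which report recent neuronal activity, were 11 higher and 2 lower of 13 (median 0.073, but -0.0087 without SB replicate 10 and 0.16 without SB replicate 4). In injured males 2 were higher and 11 lower (median -0.13). The first of the 13 by p in females was Egr3, with 153, 202 and 433 CPM in SB libraries and 145, 198 and 347 CPM in vehicle libraries (0.18 ± 0.084). Of the 13, 1 higher gene (7.69%, beside 3.3% of all genes higher) had an unadjusted p under 0.05. That count was 0 when any of 11 single libraries was left out.

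Chromatin and matrix genes were also higher on balance. All 30 chromatin remodellers were higher in SB females (26 of 30 under upper-quartile factors), with a median of 0.076, and 6 (20.0%, beside 3.3%) had an unadjusted p under 0.05. Setd1b, a histone H3 lysine methyltransferase gene, spanned 52.4, 65.3 and 127 CPM in SB libraries and 42.0, 55.9 and 68.3 CPM in vehicle libraries (0.27 ± 0.099), the top value being SB replicate 10. The SWI/SNF subunit genes Arid1b and Arid1a stood at 0.13 ± 0.054 and 0.14 ± 0.058, and the acetyltransferase gene Ep300 at 0.18 ± 0.077. The count of 6 was 2 without SB replicate 10 and 3 without vehicle replicate 6 or 9, and without the 3 far libraries the list was 22 higher and 8 lower (median 0.029). The median was 0.046 without vehicle replicate 9.

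Of 22 measured extracellular matrix genes 18 were higher and 4 lower, with a median of 0.12. Among the higher, 5 (22.7%, beside 3.3% of all genes higher) had an unadjusted p under 0.05. Fn1, the fibronectin gene, spanned 42.3, 94.5 and 139.8 CPM in SB libraries and 31.4, 76.7 and 104 CPM in vehicle libraries (0.29 ± 0.114). The laminin chain genes Lamb2, Lama5 and Lama2, which build the basement membrane of vessels, stood at 0.21 ± 0.072, 0.36 ± 0.154 and 0.19 ± 0.087. The matrix median was 0.027 without the 3 far libraries, and the 5 became 2 without SB replicate 8 and 3 without SB replicate 10, vehicle replicate 4 or vehicle replicate 9. Endothelial genes were 17 higher and 2 lower of 19 (median 0.077, or 0.046 without vehicle replicate 6 and 0.0064 without cohort F3). The median was 0.02, -0.16, 0.16 and 0.09 within F1 to F4. At an unadjusted p under 0.05 stood 1 higher (5.26%, beside 3.3% of all genes), the TGF-beta co-receptor gene Eng at 0.23 ± 0.110. The 1 lower (5.26%, beside 3.91%) was the surface antigen gene Ly6a at -0.23 ± 0.103. These counts were 0 when any of 16 and any of 5 single libraries, in that order, was left out.

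Genes of the ribosome and the respiratory chain were lower throughout. All 36 measured cytosolic ribosomal protein genes were lower in SB females, with a median of -0.13 and a range of -0.22 to -0.04. Of them, 16 (44.4%, beside 3.91% of all genes lower) had an unadjusted p under 0.05. In every cohort 22 were lower, beside 8.08% of all genes. Vertebrate ribosomal protein mRNAs typically begin in a run of pyrimidines at the start site, through which their translation follows mTOR signalling. The 40 bases around the RefSeq start site are shown for the 4 members of smallest p, with any run of 6 or more C or T that lies wholly within the 10 bases on either side of the start in capitals. Base 21 of each line is the first transcribed base, and all are of build GRCm38.p6 (Rps24 chr14:24490658-24490697, plus strand; Rps4x chrX:102189372-102189411, minus strand; Rps6 chr4:86857348-86857387, minus strand; Rpl37 chr15:5116593-5116632, plus strand):

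Rps24: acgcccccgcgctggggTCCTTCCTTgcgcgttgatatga

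Rps4x: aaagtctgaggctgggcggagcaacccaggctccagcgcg

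Rps6: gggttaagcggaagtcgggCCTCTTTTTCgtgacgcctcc

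Rpl37: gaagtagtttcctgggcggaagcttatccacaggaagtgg

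Rps24 and Rps6 held such a run, and Rps4x and Rpl37 did not in those 10 bases on either side. Of the 26 ribosomal protein genes with a RefSeq entry 12 (46.2%) had one on the gene's strand, beside 1514 of 7764 measured genes (19.5%).

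Rps24 spanned 139, 166 and 205 CPM in SB libraries and 165, 197 and 276 CPM in vehicle libraries. Of the SB libraries 4 lay below every vehicle library and 2 above the vehicle median, and the log2 fold change was -0.22 ± 0.074 (unadjusted p = 0.00368, adjusted p = 0.693 by edgeR). Rps4x, the X-linked small subunit gene, stood at -0.20 ± 0.069, and Rps6, whose protein is the S6 kinase target of the small subunit, at -0.17 ± 0.060. Rpl37, of the large subunit, spanned 78.2, 86.9 and 96.8 CPM in SB libraries and 81.2, 103 and 130.1 CPM in vehicle libraries (-0.19 ± 0.069), with no SB library above the vehicle median. Ribosomal protein genes have many near-identical pseudogenes, so their counts are uncertain where the submitters' counting could split reads. The median of the 36 genes was -0.04 in F1, -0.29 in F2, -0.11 in F3 and -0.16 in F4, and 9 in place of 16 had an unadjusted p under 0.05 without vehicle replicate 6.

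All 29 measured oxidative phosphorylation subunits, the nuclear-encoded parts of the respiratory chain, were lower as well, with a median of -0.12 and a range of -0.22 to -0.03. Of these 7 (24.1%, beside 3.91% of all genes lower) had an unadjusted p under 0.05. Cox7a2, of cytochrome c oxidase, spanned 49.2, 69.9 and 81.1 CPM in SB libraries and 63.8, 78.3 and 110.0 CPM in vehicle libraries (-0.21 ± 0.073). The complex I genes Ndufb3, Ndufb5 and Ndufa5 stood at -0.21 ± 0.074, -0.15 ± 0.061 and -0.19 ± 0.083. The count of 7 was 2 without vehicle replicate 9, 4 without vehicle replicate 6, 11 without vehicle replicate 2 and 12 without SB replicate 9 or vehicle replicate 10. Without the 3 far libraries the list was 3 higher and 26 lower, with a median of -0.065 and 2 genes under the unadjusted threshold. Of the 29 genes 11 were lower in every cohort, beside 8.08% of all genes. The median was -0.0035 in F1, -0.25 in F2, -0.11 in F3 and -0.15 in F4.

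Short and long genes differed in step with these lists. Genes were ranked by their longest GENCODE transcript, known for 9549 of the 9636 genes, and split into 5 bins of equal size. In the bin of shortest transcripts, 79 to 2235 bases, 20.5% of genes were higher in SB females and the median was -0.056. In the bin of longest transcripts, from 5743 bases, 80.3% were higher and the median was 0.061. Across genes Spearman's rho between length and fold change was 0.49 in females and 0.076 in injured males, a description in which all genes share the same libraries. The slope of log2 CPM on log2 length in each library, relative to the mean of the 58 libraries, ran from -0.115 to 0.0819 with a median of 0.0577 in SB libraries and from -0.208 to 0.0787 with a median of 0.00711 in vehicle libraries. It was above 0 in 9 of 11 SB libraries and 6 of 12 vehicle libraries. SB minus vehicle it was -0.013 in F1, 0.127 in F2, 0.067 in F3 and -0.020 in F4.

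The median longest transcript was 1140 bases for the ribosomal protein list and 870.0 bases for oxidative phosphorylation, against 8488 bases for chromatin remodellers and 2794 bases for myelin. With each library's length slope as an added covariate, which was chosen after the data were seen, the ribosomal median was -0.036 (8 higher, 28 lower, 4 with an unadjusted p under 0.05). The oxidative phosphorylation median was then -0.030 (10 higher, 19 lower) and the chromatin median 0.034 (20 higher, 10 lower). The glutamate receptor median turned to -0.028 (9 higher, 14 lower). The postsynaptic median was 0.061 (17 higher, 5 lower), the upper layer median 0.080 (16 higher, 3 lower), the p38 substrate median 0.0070 (10 higher, 9 lower) and the disease-associated microglia median -0.039 (5 higher, 10 lower). The deep layer median was -0.13 and the matrix median 0.11, while the myelin median stayed at -0.28 with all 26 genes lower. The part of the length slope in the list values was not tested beyond this covariate.

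**Figure D4:**
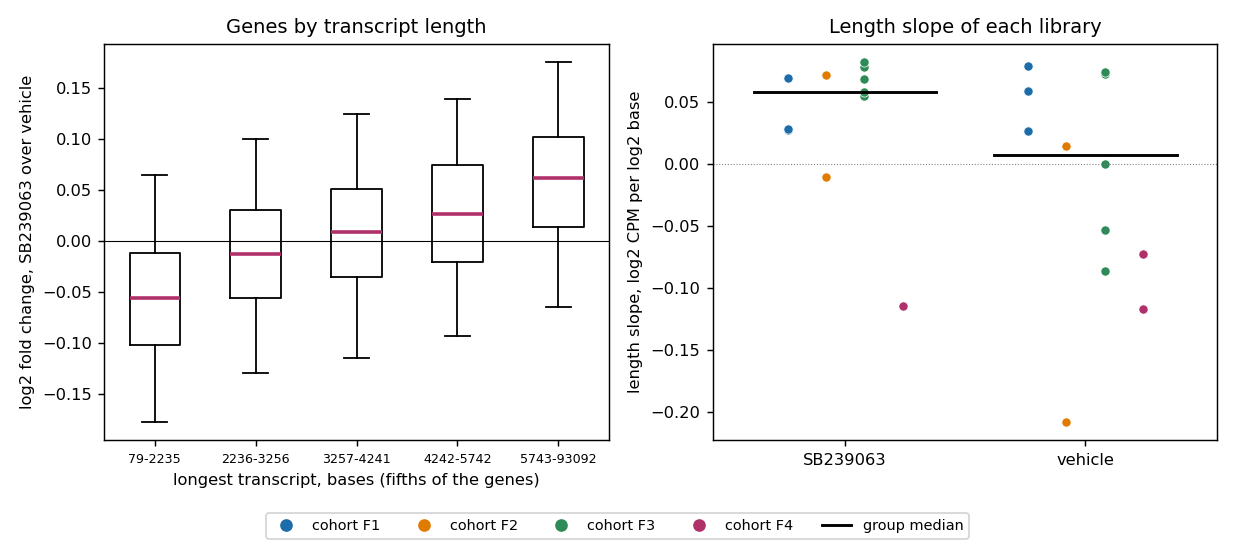
Left: log2 fold change of SB over vehicle in injured females in 5 equal bins of longest transcript length, with boxes over the middle 50% of genes, dark red lines at medians and whiskers over the middle 90% of genes. Right: length slope of each library with SB at the left and vehicle at the right, coloured by cohort, black bars at group medians; the gene medians climb from -0.056 to 0.061 while the slopes of the groups overlap.

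The genes of smallest p in the higher direction are named as the top of the ranking, none having passed (adjusted p = 0.693 by edgeR for each). Rai1, a chromatin-associated regulator lost in Smith-Magenis syndrome in humans, spanned 85.0, 110.4 and 177 CPM in SB libraries and 63.8, 93.1 and 114 CPM in vehicle libraries. Of SB libraries 4 lay above every vehicle library, the log2 fold change was 0.30 ± 0.086 (unadjusted p = 0.00118 by edgeR), and the differences in F1 to F4 were 0.13, 0.15, 0.38 and 0.48. Ptk7, a receptor-like pseudokinase of planar cell polarity, spanned 12.4, 14.1 and 26.3 CPM in SB libraries and 10.5, 12.4 and 14.8 CPM in vehicle libraries (0.34 ± 0.101). All 11 SB libraries lay above the vehicle median and 5 above the highest vehicle library. Zfp12, a zinc finger gene, had the tightest levels, 38.3, 41.6 and 44.8 CPM in SB libraries and 33.9, 37.9 and 45.1 CPM in vehicle libraries (0.13 ± 0.043), again with all 11 SB libraries above the vehicle median.

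The other 7 of the 10 were Mtcl1, a microtubule crosslinking factor gene, at 0.22 ± 0.067; Ppp1r26, a protein phosphatase 1 regulator gene, at 0.19 ± 0.058; the protocadherin gene Pcdh1 at 0.24 ± 0.077; Tubgcp2, of the gamma-tubulin complex, at 0.15 ± 0.049; Ints5, an Integrator subunit gene, at 0.22 ± 0.072; Cic, the capicua repressor gene, at 0.24 ± 0.080; and Shank3, described above. Pcdh1 spanned 213, 280.5 and 373 CPM in SB libraries and 168, 231 and 293 CPM in vehicle libraries, and 4 SB libraries lay above every vehicle library. Ints5 spanned 15.8, 20.8 and 26.4 CPM in SB libraries and 14.4, 17.5 and 20.7 CPM in vehicle libraries, with 6 SB libraries above every vehicle library. All 10 had an unadjusted p under 0.05 in each of the 23 fits that left out 1 library. These genes were picked by p in the same libraries, so those fits give no separate support.

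Of the 10 genes of smallest p in the lower direction none passed either (adjusted p = 0.693 by edgeR for each). Nudt19, a coenzyme A hydrolase gene, had the smallest p of all genes. It spanned 25.7, 41.6 and 44.6 CPM in SB libraries and 40.2, 48.0 and 58.8 CPM in vehicle libraries, no SB library reached the vehicle median, and the log2 fold change was -0.25 ± 0.063 (unadjusted p = 0.000247 by edgeR). Mcee, the methylmalonyl-CoA epimerase gene, spanned 9.49, 11.6 and 12.8 CPM in SB libraries and 12.0, 13.3 and 18.6 CPM in vehicle libraries (-0.24 ± 0.072). With 8 of 11 SB libraries below the lowest vehicle library, it came nearest to a full separation among the 20 genes named by p. Tmsb4x, thymosin beta 4, which binds actin monomers and is abundant in microglia and neurons, spanned 226, 322 and 380.0 CPM in SB libraries and 300.0, 366 and 560.1 CPM in vehicle libraries (-0.24 ± 0.072). Its differences within cohorts were -0.09, -0.48, -0.21 and -0.35 in F1 to F4.

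Snrpb2, of the U2 spliceosomal particle, spanned 20.9, 24.6 and 31.6 CPM in SB libraries and 24.8, 31.8 and 43.6 CPM in vehicle libraries (-0.26 ± 0.078), with no SB library above the vehicle median and 6 below every vehicle library. Smap1, a clathrin-linked Arf GTPase activator gene, spanned 87.0, 94.7 and 108 CPM in SB libraries and 95.2, 105 and 130.1 CPM in vehicle libraries (-0.13 ± 0.039). Tmem199, which helps assemble the proton pump of acidic organelles, stood at -0.18 ± 0.051, with a difference of 0.06 in the opposite direction in cohort F4. Thoc7, of the mRNA export complex THO, stood at -0.20 ± 0.060, the dysbindin-domain gene Dbndd2 at -0.25 ± 0.076, the ubiquitin hydrolase gene Uchl3 at -0.21 ± 0.066 and Rwdd2a at -0.30 ± 0.092. All 10 kept an unadjusted p under 0.05 in each of the 23 fits that left out 1 library. Here too the genes were picked by p in the same libraries, so those fits give no separate support.

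**Figure D5:**
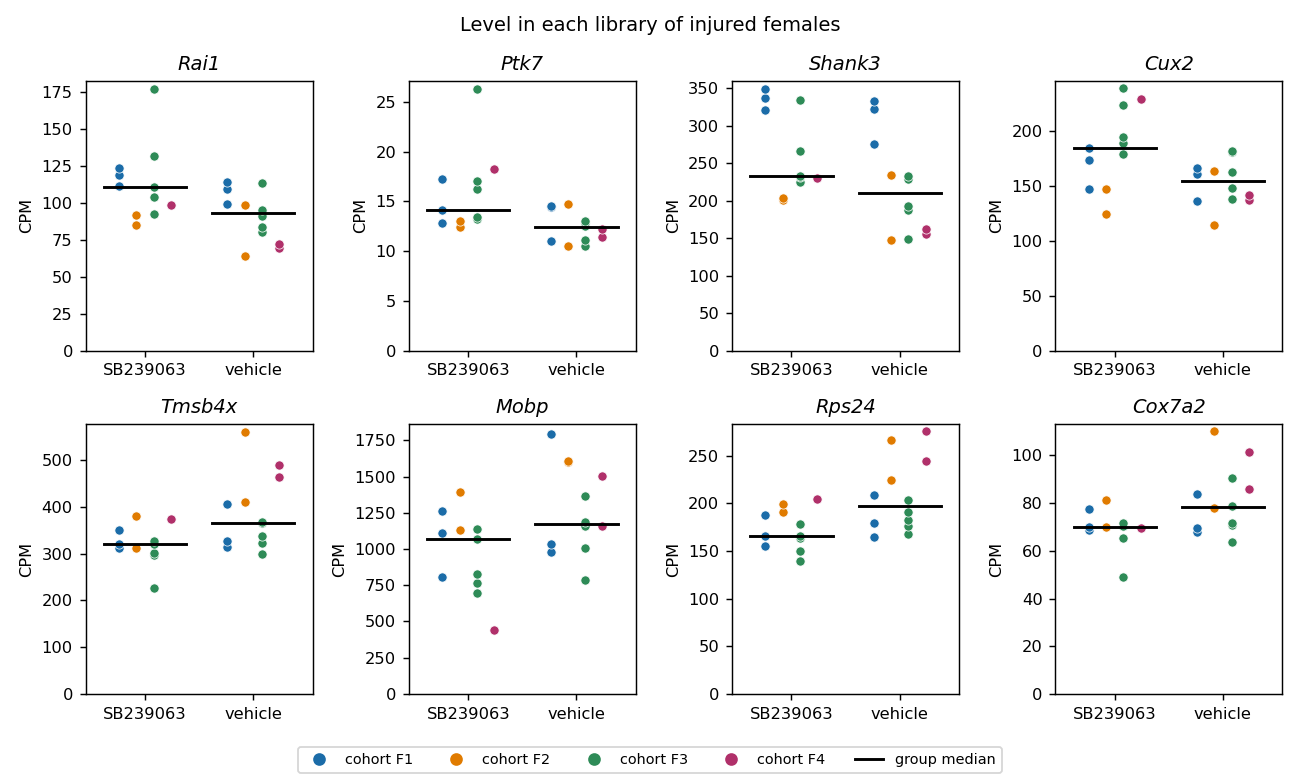
Level in CPM (vertical axis from 0) of 8 genes in each injured female library, with SB at the left and vehicle at the right, coloured by cohort, black bars at group medians. SB medians lie above vehicle medians for Rai1, Ptk7, Shank3 and Cux2 and below them for Tmsb4x, Mobp, Rps24 and Cox7a2, and the groups overlap in every panel.

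A second way to rank genes is by agreement of the cohorts. In all 4 cohorts the SB mean was higher for 823 genes (8.54%) and lower for 779 genes (8.08%). Mdga1, an adhesion protein that binds neuroligin, had the largest smallest difference among the higher: 0.16, 0.26, 0.45 and 0.45 in F1 to F4. It spanned 15.0, 19.1 and 34.4 CPM in SB libraries and 10.2, 15.7 and 34.0 CPM in vehicle libraries, with 10 of 11 SB libraries above the vehicle median (0.32 ± 0.110). Stat5b, a transcription factor gene of cytokine and growth hormone receptors, had nearly equal cohort differences of 0.16, 0.28, 0.15 and 0.16, and spanned 28.2, 33.6 and 41.4 CPM in SB libraries and 23.0, 29.8 and 38.9 CPM in vehicle libraries (0.17 ± 0.065). Adgra2, a co-receptor of Wnt7 signals in brain vessels, was at 0.18, 0.13, 0.35 and 0.50 in the 4 cohorts, Plekhh3 at 0.20, 0.14, 0.15 and 0.30, and Rai1 followed.

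Among the genes lower in every cohort, Opalin, Mobp and Mal of the myelin list held 3 of the first 5 places. Their cohort differences in F1 to F4 were -0.27, -0.34, -0.23 and -1.24 for Opalin, -0.23, -0.35, -0.29 and -1.57 for Mobp and -0.24, -0.23, -0.22 and -1.58 for Mal. F4 stood far out. The ranking picks genes with a difference in every cohort, so the likeness of F1, F2 and F3 in these genes follows from it. Over all 26 myelin genes the cohort medians were -0.06, -0.35, -0.19 and -1.23. Tmem267 was at -0.49, -0.38, -0.25 and -1.48, with 6.16, 11.5 and 27.8 CPM in SB libraries and 6.44, 16.3 and 39.6 CPM in vehicle libraries. Krcc1 was at -0.27, -0.21, -0.24 and -0.57 and spanned 8.33, 13.7 and 19.4 CPM in SB libraries and 11.9, 16.9 and 23.3 CPM in vehicle libraries (-0.28 ± 0.105).

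Whether the SB difference was particular to females was tested as the female minus the male difference among injured mice in the same fit. No gene passed (0 of 9636, 0% called, smallest adjusted p = 1 by edgeR), and 88 genes (0.913%) had an unadjusted p under 0.05, 36 with a positive value (0.374%) and 52 with a negative one (0.54%). That is below the 5% the threshold passes by itself. DESeq2 put 90 and voom 437 genes under the unadjusted threshold and called 0. The count was 58 without vehicle replicate 9. The genes of smallest p with a positive value were Etv3, an ETS-family repressor gene, at 0.27 ± 0.083, Shisal1 at 0.32 ± 0.117 and Klhl5 at 0.22 ± 0.089. Etv3 had a log2 fold change of 0.09 ± 0.053 in females and -0.18 ± 0.063 in males. Those with a negative value were Nlrx1, a mitochondrial NOD-like receptor gene, at -0.41 ± 0.122, the lysosomal membrane gene Tmem192 at -0.33 ± 0.112 and Nsmce4a, of the SMC5/6 complex, at -0.28 ± 0.097. Nlrx1 was at -0.14 ± 0.079 in females and 0.27 ± 0.094 in males.

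For whole lists the difference between the sexes was not tested, and the medians are given side by side. Over the 26 myelin genes the median was -0.27 in females and -0.35 in males, over the 19 upper layer genes 0.13 and 0.16, and over the 22 matrix genes 0.12 and 0.14. For ribosomal proteins it was -0.13 in females and -0.023 in males, and for oxidative phosphorylation -0.12 and 0.0017. For chromatin remodellers the values were 0.076 in females and 0.022 in males. Immediate early transcription factors went opposite ways, with 0.073 in females and -0.13 in males and 11 and 2 of 13 genes higher. So did activity-induced effectors, with 0.046 and -0.073 and 16 and 6 of 21 genes higher. Of the 36 ribosomal and 29 oxidative phosphorylation genes, 1 and 0 had an unadjusted p under 0.05 for the female minus male difference (Rpl37 at -0.25 ± 0.107, unadjusted p = 0.0259, adjusted p = 1 by edgeR).

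Whether the SB difference depended on injury was tested as the injured minus the sham difference in females. The 3 sham SB females come from cohorts F1 and F2 alone, so the test rests on few mice. No gene passed (0% called, smallest adjusted p = 1 by edgeR), and 63 genes (0.654%) had an unadjusted p under 0.05, 44 positive (0.457%) and 19 negative (0.197%). DESeq2 put 71 and voom 598 genes under the unadjusted threshold and called 0. The 63 became 146 without sham SB replicate 2, 119 without sham SB replicate 1 and 40 without sham SB replicate 3. Amer1, a regulator of beta-catenin, had the smallest p, at 0.49 ± 0.140. It averaged 13.0 ± 1.27 CPM in injured SB and 11.6 ± 1.37 CPM in injured vehicle females (SD, n = 11 and 12), and 9.82 ± 1.41 CPM in sham SB and 12.8 ± 2.14 CPM in sham vehicle females (SD, n = 3 and 9).

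The other genes at the top of that ranking were Med10, a Mediator subunit gene, at 0.28 ± 0.098, and the centriole gene Cep135 at 0.43 ± 0.163 in the positive direction. In the negative direction they were Rwdd2a at -0.48 ± 0.176, the RNA helicase gene Ddx19a at -0.24 ± 0.090 and Trp53i11 at -0.40 ± 0.156. Sham SB females against sham vehicle females had list medians of -0.23 for myelin, -0.056 for ribosomal proteins, -0.13 for oxidative phosphorylation, 0.14 for postsynaptic scaffolds and -0.0084 for upper layers. No member of these 5 lists had an unadjusted p under 0.05 for the injured minus sham difference.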

How the data were processed

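Raw counts per gene, which the authors deposited as 1 table of the whole series, were the starting point. They came from a poly(A)-selected, directional NEBNext library of each mouse's cortex, per the labels' protocols. STAR, featureCounts, DESeq2 and the mouse build GRCm39 are named in the submitters' processing notes; for their settings, the strand rule of counting and the filter behind the 9636 listed genes: not given in the sources used here. Library totals ran from 28316280 to 46357946 counts in the 11 injured SB females and from 28708144 to 48409618 counts in the 12 injured vehicle females.

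All 58 libraries entered 1 edgeR 4.0.16 quasi-likelihood fit (R 4.3.3, TMM factors, robust estimation) with 8 groups and the cohort within each sex; filterByExpr removed 0 genes. P-values were Benjamini-Hochberg adjusted over 9636 genes, with a threshold of 0.05. Libraries were taken as separate mice because the labels say nothing else; if some were not, p-values would measure partly technical spread. The closest pair of SB libraries differed by a chi-square of 13.0 per degree of freedom and the closest pair of vehicle libraries by 9.83, so none was counted as a repeat. Replicate numbers did not pair the samples. Named genes were, for each direction, the 10 with the lowest p, up to 4 of smallest p of each described list, 3 in each direction for each difference of differences, and the 5 in each direction with the largest smallest cohort difference. Mapk14, Mapk11 and Mapkapk2 were named throughout; 3 genes that the rule selects are not reported here. The libraries, lists and tests were chosen with earlier results of these data known.

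Alternatives were RLE and upper-quartile factors, DESeq2 1.42.0, limma 3.58.1 voom, another count filter, no cohort, a replicate block, library total, fewer samples, no robust estimation, and each replicate or cohort left out. Chosen after seeing the data were 3 far libraries left out and a length slope. The test was checked on simulated data with the same spread for every gene and no cohort differences, so the check does not cover those features of the real data. Transcript lengths came from a GENCODE annotation and promoter sequences from RefSeq on GRCm38.p6, an older build than that of the counts, whose coordinates are used for the printed sequences alone.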

Additional observations from a re-analysis of the deposited data

How the results depend on the processing

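The number of genes called for SB against vehicle was 0 in the main analysis and in each alternative run, and likewise for the female minus male and the injured minus sham differences. The smallest adjusted p for SB against vehicle ran from 0.0522 with voom to 0.986 across alternatives, and the adjusted p of the 20 genes named by p from 0.0685 to 0.997. Genes at an unadjusted p under 0.05 numbered 695, and 451 to 1030 with 1 replicate left out. With a replicate block there were 730, with 0 called; only 4 of 11 same-numbered pairs deviated together with a correlation over 0.1, so the numbers are not taken as pairs. Without the cohort term the injured minus sham count was 182 in place of 63, and without one female library the sex count was 58 to 128.

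Among log2 fold changes of named genes, 6 turned direction. Mapk11 ran from -0.0320 without SB replicate 10 to 0.0630 without vehicle replicate 2, and was -0.0105 without SB replicate 8, -0.0157 without cohort F1 and -0.0663 without the 3 far libraries. Dusp8 was -0.0345 without cohort F3, and Il6st -0.0035 with the length slope. The causes were not tested. The other 3900 values kept their direction and their side of the adjusted threshold.

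Counting error weighs most on the genes of lowest count, the smallest count being 101. The number of mice also limits the precision: cohort F4 has 1 SB library, and cohort F2 has 2 of each group.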

Other observations

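Among lists outside the p38 and glial accounts in SB females, cholesterol synthesis and uptake had 9 genes higher and 14 lower of 23 (median -0.011, or 0.022 without the 3 far libraries), glucocorticoid response 9 and 8 of 17 (median 0.0044, or -0.025 without cohort F3) and circadian clock 15 and 4 of 19 (median 0.042). Heat shock and chaperone genes were 6 higher and 10 lower of 16 (median -0.034, or 0.036 without cohort F3). Of the lower, 2 (12.5%, beside 3.91% of all genes) had an unadjusted p under 0.05, and 0 without vehicle replicate 8. These 2, named after their values were seen, were the chaperone genes Hspe1 at -0.18 ± 0.070 and Hsp90aa1 at -0.15 ± 0.072. Mt2, the first by p in the glucocorticoid list, a metallothionein gene whose product binds zinc, spanned 33.7, 46.3 and 68.5 CPM in SB libraries and 39.4, 57.9 and 74.4 CPM in vehicle libraries, a log2 fold change of -0.21 ± 0.096 (adjusted p = 0.693 by edgeR).

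Markers of the striatum, which lies beneath the cortex, were 8 higher and 3 lower of 11 in injured females (median 0.035) and 11 of 11 higher in injured males (median 0.35). The female median was -0.0089 without vehicle replicate 11 and 0.076 without vehicle replicate 9. By the mean log2 CPM of the list against the vehicle mean, SB replicate 9 at 0.99 and vehicle replicate 8 at 0.74, both of cohort F1, stood apart. Choroid plexus markers had 2 measured genes. Thalamic markers were 5 higher and 4 lower of 9 in females (median 0.058), with 3 of the higher (33.3%, beside 3.3% of all genes) and 1 of the lower (11.1%, beside 3.91%) at an unadjusted p under 0.05. The 3 became 1 without SB replicate 11. The median was 0.027 without vehicle replicate 2, 0.10 without SB replicate 8 and -0.0030 with the length slope. Named after their values were seen, the 3 were Prkcd, a protein kinase C gene, at 0.36 ± 0.138, the zinc finger gene Zic1 at 0.37 ± 0.154 and the RNA-editing enzyme gene Adarb1 at 0.14 ± 0.053, and the 1 was Ramp3, a receptor activity-modifying protein gene, at -0.18 ± 0.072.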
